A study of Mus musculus with 6 samples.

Results

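The glutathione, thioredoxin and NRF2 antioxidant genes examined here were a list of 38 symbols, taken by exact match from a count table of 55571 gene symbols. All 38 were listed in the table, and 36 had enough counts to be among the 13594 genes tested. RNA was sequenced from E0771 cells, a mouse mammary carcinoma line, in 6 libraries: 3 from cells expressing wild-type Malt1 (Malt1-WT) and 3 from cells carrying the vector control. All were kept at basal condition, with no stimulus named. Malt1 encodes a paracaspase, a protease and scaffold that works upstream of NF-kB. The labels do not give the way Malt1 was introduced, whether each line is 1 clone or a pool, or whether replicates were separate cultures. The p-values thus describe the spread among these libraries alone, and that spread may be technical.

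Cells remove peroxides largely with a pair of thiol systems. Glutathione, made from cystine-derived cysteine by glutamate-cysteine ligase and glutathione synthetase, serves the glutathione peroxidases and transferases, while thioredoxin serves the peroxiredoxins. Both are kept reduced with NADPH, much of it from the pentose phosphate pathway. The transcription factor NRF2, encoded by Nfe2l2, is held low by KEAP1 and, when released, binds antioxidant response elements together with small MAF proteins at many of these genes. In carcinoma cells the pathway is known for its part in resistance to oxidative and drug stress.

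Because many of these genes are known targets of transcription factors that bind near the start site, the 250 bases before an annotated start are shown for 5 members that were higher in Malt1-WT. Of the 38 symbols, 33 matched a RefSeq promoter of build GRCm38.p6, which spans 250 bases before to 50 after the start. These 33 had 42 promoters, since some genes have several starts, and only promoters with a match are shown. The Txnrd1 window belongs to a start inside the gene, whose annotated span begins at 82833951. Capitals mark a motif match on either strand: TGATGNAA, read here as the ATF4 and C/EBP-ATF element, in Slc7a11, and TGACNNNGC, the antioxidant response element core, in the other 4. The Slc7a11 window lies at chr3:50443614-50443863 (minus strand), Gclm at chr3:122245307-122245556 (plus strand), Txnrd1 at chr10:82858956-82859205 (plus strand), Prdx1 at chr4:116685349-116685598 (plus strand) and G6pdx at chrX:74428881-74429130 (minus strand).
Slc7a11: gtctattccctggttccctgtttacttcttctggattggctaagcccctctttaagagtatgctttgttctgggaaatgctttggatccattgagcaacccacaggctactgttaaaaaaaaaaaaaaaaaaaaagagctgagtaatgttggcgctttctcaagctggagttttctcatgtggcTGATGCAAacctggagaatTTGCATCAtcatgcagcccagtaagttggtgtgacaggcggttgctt
Gclm: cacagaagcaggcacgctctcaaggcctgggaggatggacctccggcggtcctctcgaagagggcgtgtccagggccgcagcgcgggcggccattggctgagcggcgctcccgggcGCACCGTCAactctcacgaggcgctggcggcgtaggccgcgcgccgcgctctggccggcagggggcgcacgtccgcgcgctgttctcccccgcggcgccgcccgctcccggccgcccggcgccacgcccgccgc
Txnrd1: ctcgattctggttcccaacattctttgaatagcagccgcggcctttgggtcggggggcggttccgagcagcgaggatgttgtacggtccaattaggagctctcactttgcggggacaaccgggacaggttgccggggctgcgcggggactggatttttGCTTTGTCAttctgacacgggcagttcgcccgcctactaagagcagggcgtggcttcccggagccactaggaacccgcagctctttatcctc
Prdx1: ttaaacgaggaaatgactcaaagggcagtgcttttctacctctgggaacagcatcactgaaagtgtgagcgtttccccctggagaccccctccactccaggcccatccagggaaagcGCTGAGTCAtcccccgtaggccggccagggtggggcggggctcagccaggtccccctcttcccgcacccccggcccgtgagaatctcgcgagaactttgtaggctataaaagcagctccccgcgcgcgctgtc
G6pdx: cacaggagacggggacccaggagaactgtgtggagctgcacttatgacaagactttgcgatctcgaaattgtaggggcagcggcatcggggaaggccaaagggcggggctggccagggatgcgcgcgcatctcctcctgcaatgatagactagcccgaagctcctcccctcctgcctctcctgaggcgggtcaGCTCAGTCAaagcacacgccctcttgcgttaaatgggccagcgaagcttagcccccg

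Total counts per library ranged from 17601656 to 20543778. Malt1 was counted at 309, 308 and 297 CPM (the count scaled to a common library total, with TMM factors) in Malt1-WT, against 28.5, 31.1 and 30.4 CPM in the vector control, and introduced and endogenous transcripts cannot be separated in these counts. Of 7 epithelial markers, Krt8 had 1021 to 1158 counts per library in Malt1-WT and 1233 to 1430 in the vector control. It was called lower (log2 fold change -0.20, SE 0.05, edgeR adjusted p = 3.16e-04). Epcam had 95 to 132 counts in Malt1-WT and 121 to 125 in the vector control and was not called. Krt18, Krt7, Krt19, Cdh1 and Cldn4 had at most 9 counts in any library. The summed epithelial level was 64.2 to 69.8 CPM in Malt1-WT and 73.3 to 77.6 CPM in the vector control. Of 10 leukocyte markers, 5 were tested, with 2 higher and 2 lower in Malt1-WT. Their summed level was 28.4 to 32.4 CPM in Malt1-WT and 22.2 to 26.1 CPM in the vector control, with Tyrobp at 0 in all 6 libraries and Ptprc at 3 counts or fewer in each. Of 5 fibroblast markers, 2 were lower and 0 higher, with a summed level of 138 to 149 CPM in Malt1-WT and 194 to 206 CPM in the vector control, and of 4 endothelial markers 1 was higher, with a summed level of 10.3 to 10.8 CPM in Malt1-WT and 4.58 to 5.84 CPM in the vector control. The part of these other markers in the results was not tested, and in bulk RNA fewer cells of a type and less RNA per cell cannot be told apart.

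Among the antioxidant genes, 20 of 36 tested members were higher in Malt1-WT and 13 were lower at an edgeR quasi-likelihood adjusted p under 0.05, and 3 were not called. The largest increases were in the cystine transporter gene Slc7a11 (6.39-fold), the extracellular glutathione peroxidase gene Gpx3 (4.56-fold), the sulfiredoxin gene Srxn1 (2.87-fold), the glutamate-cysteine ligase modifier gene Gclm (2.30-fold) and the peroxiredoxin gene Prdx5 (2.09-fold). The largest decreases were in Txnip, which encodes an inhibitor of thioredoxin (to 0.42 of the vector control level), and in the glutathione peroxidase gene Gpx1 (to 0.53). Changes were common in this experiment: 61.2% of all tested genes were called in either direction, 31.0% higher and 30.2% lower, against 91.7% of the members, 55.6% higher and 36.1% lower. The members were also more abundant, with a median log2 CPM of 6.80, against 4.65 for all tested genes, and the part of abundance in the share called was not tested.

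Minima of size were applied as well. A call with a change of at least 1.5-fold was made for 15 of 36 members (41.7%), 11 higher and 4 lower, against 24.8% of all tested genes (14.5% higher, 10.4% lower). At 2-fold the count was 6 of 36 (16.7%), 5 higher and 1 lower, against 13.1% of all tested genes (8.35% higher, 4.77% lower), so the share of members at 2-fold was near the background. The median log2 fold change was 0.27 over the members and -0.003 over all tested genes. The libraries of the 2 groups did not overlap in 32 of 36 members, 21 with Malt1-WT above and 11 with Malt1-WT below, against 64.4% of all tested genes (32.4% above, 32.0% below). The plot of change by role places increases and decreases side by side in 6 of the 9 role groups. Only the regulators, the cystine and glutathione synthesis genes and the quinone and biliverdin reductases have every tested member called higher. The role groups were set with earlier results of these data known, so this contrast between groups is a description.

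**Figure D1:**
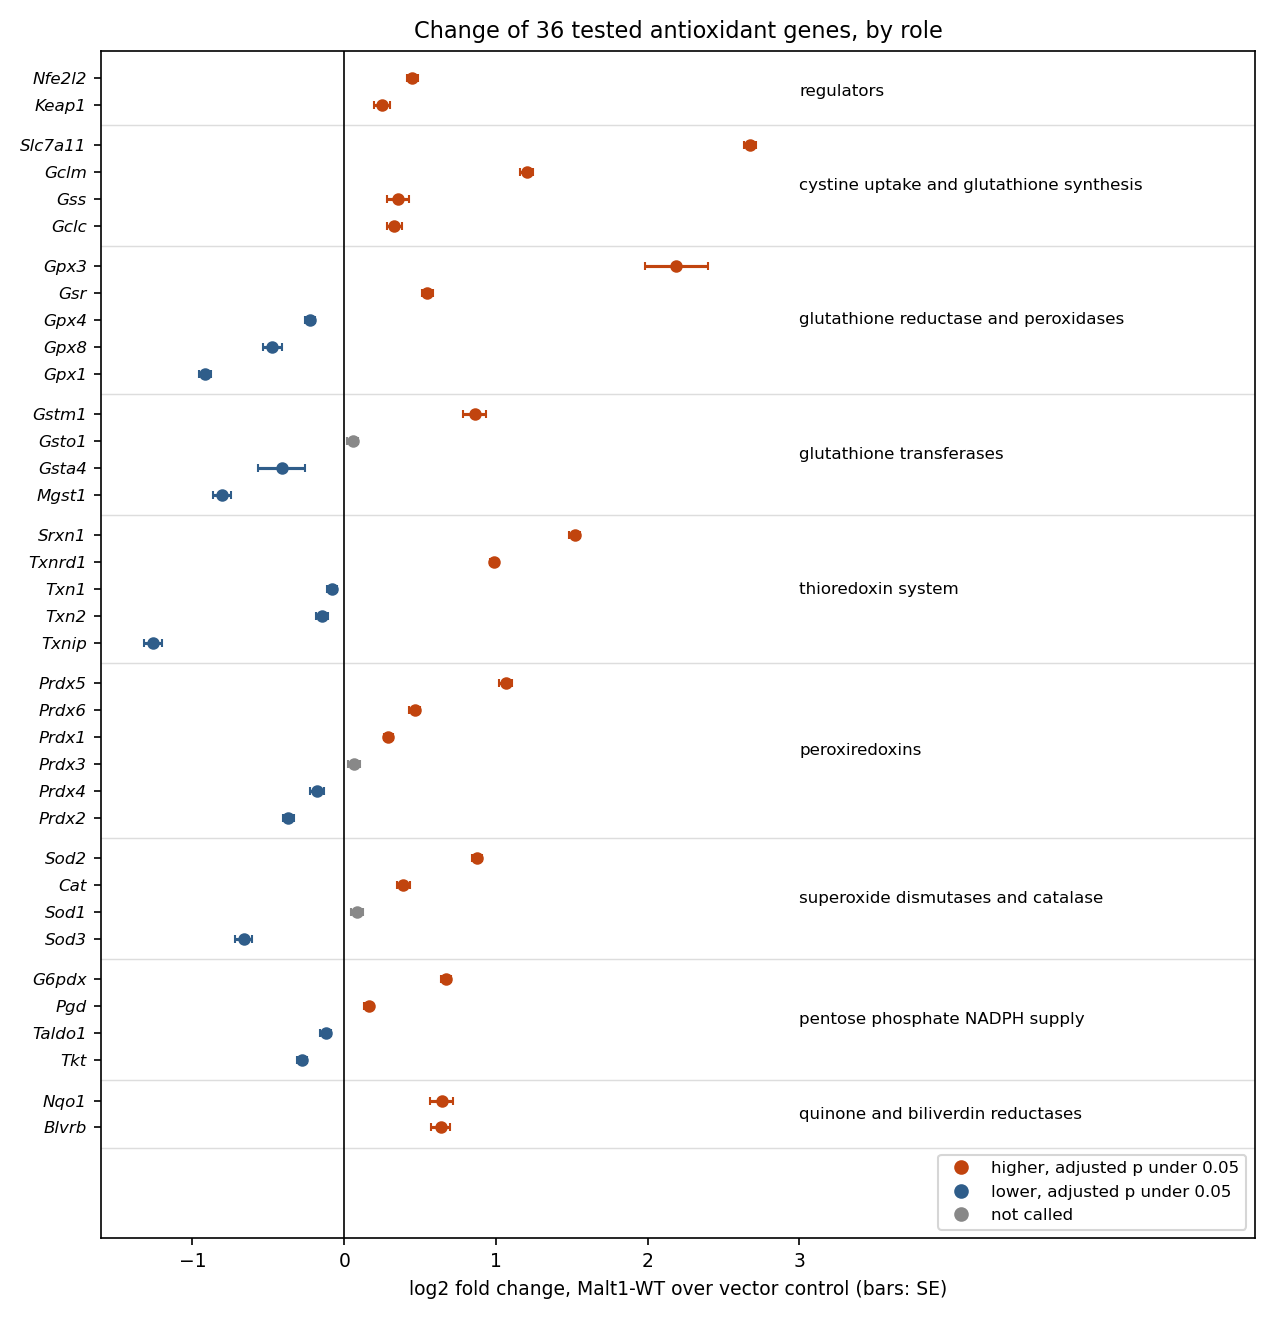
Log2 fold change of each tested member, Malt1-WT over vector control, with its standard error as a bar, grouped by role and coloured by call. Slc7a11 (2.68) and Gpx3 (2.19) lie farthest to the right and Txnip (-1.26) farthest to the left.

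Both regulators were higher. Nfe2l2, which encodes NRF2, had 252, 243 and 244 CPM in Malt1-WT and 186, 175 and 180 CPM in the vector control, a log2 fold change of 0.45 (SE 0.03, edgeR adjusted p = 5.42e-17). Keap1, the adaptor that marks NRF2 for degradation, had 53.3, 57.6 and 54.6 CPM in Malt1-WT and 44.3, 47.6 and 47.3 CPM in the vector control, a log2 fold change of 0.25 (SE 0.05, edgeR adjusted p = 8.79e-05). The groups did not overlap for either gene, and both changes were below 1.5-fold. NRF2 is mainly controlled at the protein level, which was not measured. An antisense gene, Gm16754, covers 10.9% of the Keap1 exons and had 36 to 45 counts per library in Malt1-WT and 35 to 45 in the vector control.

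All 4 genes of cystine uptake and glutathione synthesis were higher in Malt1-WT. Their summed level was 532 ± 13.8 CPM in Malt1-WT and 189 ± 2.48 CPM in the vector control (SD, n = 3 each). Slc7a11 alone held 286 CPM of that sum in Malt1-WT and 44.8 CPM in the vector control, so the sum mainly follows this gene. Slc7a11 (chromosome 3, 49892526 to 50443614, minus strand, GRCm38), the light chain of the cystine-glutamate exchanger, had 278, 299 and 282 CPM in Malt1-WT libraries 1 to 3, against 42.6, 45.1 and 46.7 CPM in vector control libraries 1 to 3. The lowest Malt1-WT library was far above the highest vector library, with a log2 fold change of 2.68 (SE 0.04, edgeR adjusted p = 3.47e-46), and 1.93% of all tested genes had a larger change in either direction. Gclm, the modifier subunit that raises the activity of glutamate-cysteine ligase, had 138, 141 and 142 CPM in Malt1-WT and 60.4, 64.7 and 57.6 CPM in the vector control, a 2.30-fold difference (SE 0.04 on the log2 scale, edgeR adjusted p = 6.69e-30). The 2 subunits of this enzyme differed in size of change, since the catalytic subunit gene Gclc was at 77.2 ± 3.53 CPM in Malt1-WT and 61.5 ± 1.26 CPM in the vector control (SD, n = 3 each), a log2 fold change of 0.33 (SE 0.05). Glutathione synthetase, Gss, had a log2 fold change of 0.35 (SE 0.07) at 28.1 ± 1.07 CPM in Malt1-WT and 22.0 ± 0.75 CPM in the vector control (SD, n = 3 each). Groups did not overlap in any of the 4 genes. Other genes share 15.4% of the Gss exons, all on the opposite strand. Acss2 covers 6.68% and was lower in Malt1-WT (log2 fold change -1.06, SE 0.10). Gssos1 (5.44%) and Gssos2 (6.51%) had at most 3 counts in any library. For Gclm, Gm17494 covers 4.71% of the exons on the opposite strand and was not called (edgeR adjusted p = 0.135). Gm6061 covers 3.88% on the same strand and was listed at 0 counts in all 6 libraries.

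Of glutathione reductase and the peroxidases, 2 were higher and 3 lower. Glutathione reductase, Gsr, which regenerates reduced glutathione, had 253, 256 and 253 CPM in Malt1-WT and 164, 181 and 175 CPM in the vector control, a log2 fold change of 0.55 (SE 0.03, edgeR adjusted p = 1.00e-19). Gpx1, the cytosolic and mitochondrial peroxidase, had 73.2, 73 and 74.6 CPM in Malt1-WT and 132, 145 and 140 CPM in the vector control. Malt1-WT libraries lay between 73.0 and 74.6 CPM, all well below the vector libraries, with a log2 fold change of -0.92 (SE 0.04, edgeR adjusted p = 1.23e-25). Gpx4, which reduces lipid hydroperoxides in membranes, was at 228 ± 5.22 CPM in Malt1-WT and 267 ± 5.75 CPM in the vector control (SD, n = 3 each), a log2 fold change of -0.22 (SE 0.03), and the endoplasmic reticulum peroxidase gene Gpx8 had one of -0.47 (SE 0.06). Gpx3, the secreted plasma form, moved the other way but from a low level: it had 107, 105 and 105 counts in Malt1-WT and 19, 27 and 28 in the vector control, a log2 fold change of 2.19 (SE 0.21, edgeR adjusted p = 2.38e-13). The summed level of these 5 genes was 584 to 594 CPM in Malt1-WT and 597 to 639 CPM in the vector control.

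**Figure D2:**
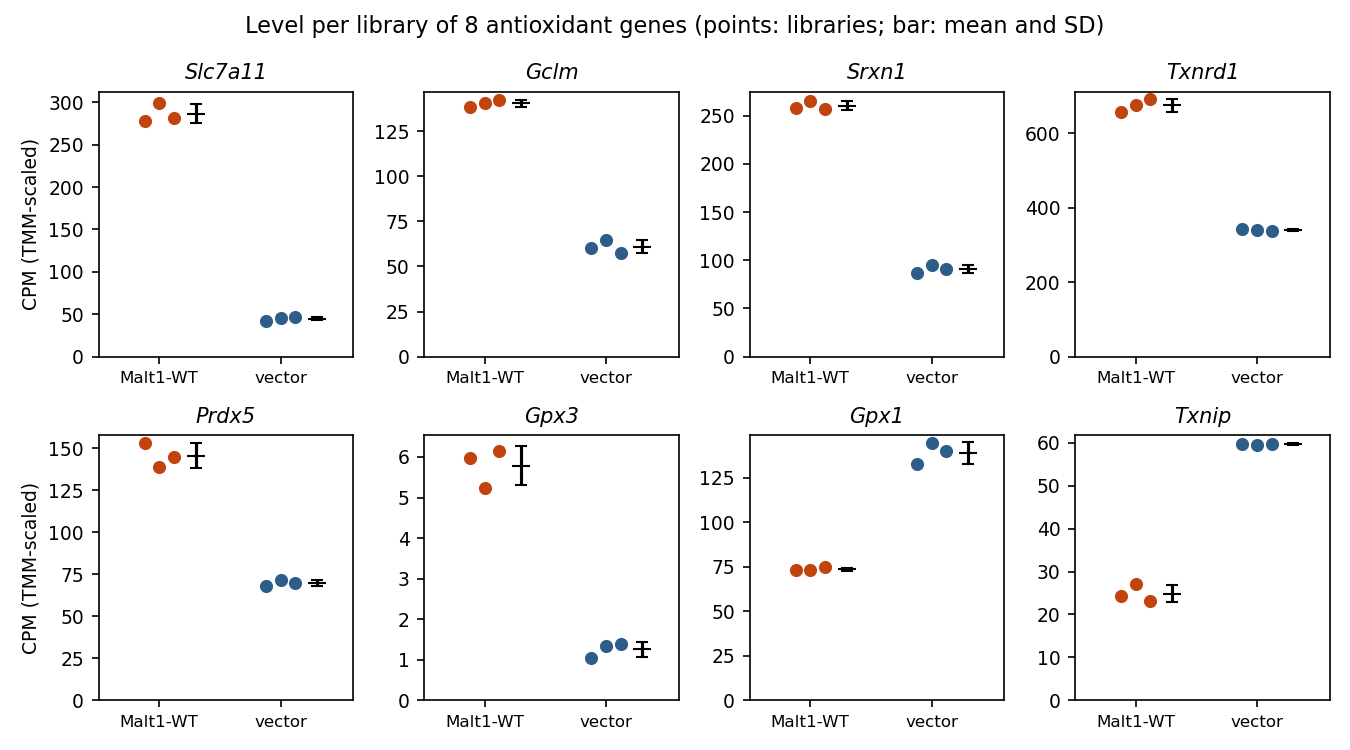
TMM-scaled CPM in each of the 3 Malt1-WT (left) and 3 vector control (right) libraries for 8 members, with points for libraries and a bar for mean and SD. The groups are separate in all 8 genes: the first 6 are higher in Malt1-WT, and Gpx1 and Txnip are lower.

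Glutathione transferases, which conjugate glutathione to electrophiles, showed 1 increase and 2 decreases among 4 tested members. Gstm1, of the mu class, had 35, 31.8 and 32.7 CPM in Malt1-WT and 19.4, 18 and 17.4 CPM in the vector control, a log2 fold change of 0.86 (SE 0.07, edgeR adjusted p = 1.25e-14). The membrane-bound Mgst1 had 34, 35.4 and 32.2 CPM in Malt1-WT and 55.9, 58.6 and 63.1 CPM in the vector control, a log2 fold change of -0.80 (SE 0.06, edgeR adjusted p = 2.91e-17). Neither gene's groups overlapped, and since mu-class genes resemble each other, their reads may be shared. Gsto1, of the omega class, was at 199 ± 6.91 CPM in Malt1-WT and 191 ± 7.11 CPM in the vector control (SD, n = 3 each) and was not called (log2 fold change 0.06, SE 0.03, edgeR adjusted p = 0.167). Gsta4, known for conjugating the lipid aldehyde 4-hydroxynonenal, was called lower on 66, 110 and 102 counts in Malt1-WT and 107, 154 and 134 in the vector control, but its groups overlapped. That call (log2 fold change -0.41, SE 0.16, edgeR adjusted p = 0.0189) was lost without Malt1-WT replicate 1 (-0.24, adjusted p = 0.196), without vector control replicate 2 (-0.32, adjusted p = 0.1003) and with DESeq2 (adjusted p = 0.0593), over a range of adjusted p from 0.00536 to 0.196 across all alternatives.

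Gstp1, the pi-class transferase, and Txnrd2, the mitochondrial thioredoxin reductase, were listed at 0 counts in all 6 libraries. A count of 0 allows up to 3 counts, or 0.150 to 0.175 CPM per Malt1-WT library and 0.147 to 0.166 CPM per vector control library, for counting error only. The neighbouring paralogs Gstp2 and Gstp3 were also listed at 0. Cox5b and Rpl37a, which encode a respiratory chain subunit and a ribosomal protein that cells in general use, were at 0 as well, against at least 101677 counts of Gapdh in every library. The zeros of Gstp1 and Txnrd2 are therefore given as listed values, without a reading of expression, and neither gene enters any count of tested members.

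In the thioredoxin system Txnrd1 and Srxn1 rose and Txnip fell, while the thioredoxin genes changed little. Txnrd1, the cytosolic thioredoxin reductase, had 657, 675 and 693 CPM in Malt1-WT libraries 1 to 3, against 343, 340 and 338 CPM in vector control libraries 1 to 3. The groups were well apart, a 1.98-fold difference, with a log2 fold change of 0.99 (SE 0.03, edgeR adjusted p = 6.75e-34). Srxn1, which restores over-oxidised peroxiredoxins, had 258, 266 and 257 CPM in Malt1-WT and 86.3, 95.1 and 90.7 CPM in the vector control, a log2 fold change of 1.52 (SE 0.04, edgeR adjusted p = 3.01e-37). Txnip, the thioredoxin-interacting protein, had 24.4, 27.1 and 23 CPM in Malt1-WT and 59.8, 59.4 and 59.7 CPM in the vector control. The vector libraries lay within 59.4 to 59.8 CPM and every Malt1-WT library was at or below 27.1 CPM, a log2 fold change of -1.26 (SE 0.06, edgeR adjusted p = 3.98e-24). The antisense gene Gm15441 covers 19.4% of the Txnip exons and had 1, 1 and 3 counts in Malt1-WT and 5, 9 and 9 in the vector control, while Txnip had 394 to 542 counts in Malt1-WT and 1084 to 1210 in the vector control.

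The thioredoxin genes moved by 1.11-fold or less. Txn1, the cytosolic form, had 371, 339 and 340 CPM in Malt1-WT and 359, 381 and 368 CPM in the vector control, so its groups overlapped. Its call as lower (log2 fold change -0.08, SE 0.03, edgeR adjusted p = 0.0323) was lost with DESeq2 (adjusted p = 0.0683), without Malt1-WT replicate 2 (0.128) or 3 (0.132), and without vector control replicate 2 (0.158) or 3 (0.0535). Across all alternatives its adjusted p ranged from 3.53e-05 to 0.158. The mitochondrial Txn2 was at 120 ± 4.01 CPM in Malt1-WT and 132 ± 2.24 CPM in the vector control (SD, n = 3 each), with a log2 fold change of -0.15 (SE 0.04) and no overlap between groups.

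Peroxiredoxins, the thioredoxin-dependent peroxidases, divided into 3 higher, 2 lower and 1 not called. Prdx5, found in mitochondria, peroxisomes and cytosol, had 153, 139 and 145 CPM in Malt1-WT and 67.8, 71.4 and 69.5 CPM in the vector control, a log2 fold change of 1.06 (SE 0.04, edgeR adjusted p = 5.24e-28). Trmt112 covers 19.1% of the Prdx5 exons on the opposite strand and was not called itself (log2 fold change -0.07, SE 0.06, edgeR adjusted p = 0.361). Prdx6, the peroxiredoxin that uses glutathione, had 194, 185 and 186 CPM in Malt1-WT and 135, 139 and 135 CPM in the vector control and a log2 fold change of 0.47 (SE 0.04). Prdx1, a cytosolic form, was at 579 ± 14 CPM in Malt1-WT and 474 ± 10.8 CPM in the vector control (SD, n = 3 each) and rose by 0.29 (SE 0.03) on the log2 scale. These 3 genes had no overlap between groups.

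The other cytosolic peroxiredoxin gene, Prdx2, moved in the opposite direction, with 173, 161 and 162 CPM in Malt1-WT and 206, 218 and 215 CPM in the vector control and a log2 fold change of -0.37 (SE 0.04). Its exons meet 2 genes on the opposite strand: Rnaseh2a over 5.80% of their length, which was lower in Malt1-WT like Prdx2 (log2 fold change -0.49, SE 0.05), and Junb over 5.67%, which was higher (1.40, SE 0.03). Prdx4, of the endoplasmic reticulum, was lower, with a log2 fold change of -0.18 (SE 0.05). The mitochondrial Prdx3 was at 106 ± 4.64 CPM in Malt1-WT and 102 ± 3.76 CPM in the vector control (SD, n = 3 each) and was not called (edgeR adjusted p = 0.170).

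The superoxide dismutases, which turn superoxide into hydrogen peroxide, moved in different directions. Sod2, the mitochondrial manganese enzyme and a known NF-kB target, had 521, 508 and 511 CPM in Malt1-WT libraries 1 to 3, against 268, 280 and 291 CPM in vector control libraries 1 to 3. The groups were far apart, with a log2 fold change of 0.87 (SE 0.03, edgeR adjusted p = 2.69e-30). Sod3, the secreted form, had 44.4, 42.3 and 38.3 CPM in Malt1-WT and 65.5, 68.2 and 64.5 CPM in the vector control, a log2 fold change of -0.66 (SE 0.05, edgeR adjusted p = 2.85e-15). The cytosolic Sod1 was at 119 ± 5.3 CPM in Malt1-WT and 112 ± 2.46 CPM in the vector control (SD, n = 3 each) and was not called (log2 fold change 0.08, edgeR adjusted p = 0.0618), although its 3 Malt1-WT libraries lay above its 3 vector libraries. Catalase, Cat, which removes hydrogen peroxide in peroxisomes, had 96.3, 97.9 and 93.2 CPM in Malt1-WT and 71.3, 75.2 and 73 CPM in the vector control and a log2 fold change of 0.39 (SE 0.04).

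The 4 pentose phosphate members split by branch of the pathway, but not every other tested gene of the pathway followed this split. The NADPH-producing enzymes of the oxidative branch were higher: G6pdx, the entry step, had 305, 308 and 308 CPM in Malt1-WT and 194, 192 and 192 CPM in the vector control, a log2 fold change of 0.67 (SE 0.03, edgeR adjusted p = 5.87e-25), and Pgd had 362, 354 and 352 CPM in Malt1-WT and 319, 318 and 319 CPM in the vector control, a log2 fold change of 0.16 (SE 0.03). The enzymes of the non-oxidative branch were lower: transketolase, Tkt, had 204, 193 and 197 CPM in Malt1-WT and 235, 240 and 245 CPM in the vector control, a log2 fold change of -0.28 (SE 0.03), and transaldolase, Taldo1, one of -0.12 (SE 0.04). None of the 4 genes had overlapping groups, and G6pdx was the single one past 1.5-fold. Ikbkg shares 13.6% of the G6pdx exons on the opposite strand and rose by 0.34 (SE 0.05). Outside the members, Pgls, of the oxidative branch, was lower, with a log2 fold change of -0.41 (SE 0.09). Rpia, of the non-oxidative branch, was lower too (-0.44, SE 0.07), and H6pd was higher (0.18, SE 0.05).

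Nqo1 and Blvrb, which reduce quinones and biliverdin or flavins with NADPH or NADH, were both higher by similar amounts. Nqo1, a standard NRF2 target, had 28.6, 28.1 and 31.1 CPM in Malt1-WT and 19.8, 18.2 and 18.4 CPM in the vector control, a log2 fold change of 0.64 (SE 0.08, edgeR adjusted p = 2.25e-10). Blvrb had 54.2, 47 and 49.4 CPM in Malt1-WT and 30.1, 32.4 and 34.1 CPM in the vector control, a log2 fold change of 0.64 (SE 0.06, edgeR adjusted p = 8.31e-13). In neither gene did the groups overlap, and both lay just past 1.5-fold (1.56 and 1.55), with Gsr (1.46) just below it.

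Levels can be compared between genes only per length. On the scale of CPM per kilobase of annotated exon, Txn1 was the highest of the 36 in both groups (333 ± 17.1 in Malt1-WT and 351 ± 10.8 in the vector control, SD, n = 3 each), followed by Prdx1 (190 ± 4.61 in Malt1-WT and 156 ± 3.56 in the vector control) and Gpx4 (132 ± 3.03 in Malt1-WT and 155 ± 3.33 in the vector control). In the vector control Prdx1 and Gpx4 differed by less than their spread. Ranks shifted below these. Gpx1 ranked 16 of 36 in Malt1-WT and 4 in the vector control, Srxn1 7 in Malt1-WT and 18 in the vector control, Txnrd1 6 in Malt1-WT and 12 in the vector control, and G6pdx 4 in Malt1-WT and 10 in the vector control. Each of these ranks was close to a neighbour's, with overlapping intervals of mean ± SD, in both groups. In Malt1-WT, G6pdx (99.7 ± 0.49) was not separated from Gsto1 (98.2 ± 3.42), nor Gpx1 (51.1 ± 0.59) from Sod2 (51.3 ± 0.70, SD, n = 3 each), and Gsto1, Txnrd1, Srxn1 and Gsr, at ranks 5 to 8, lay between 98.2 and 92.1. Slc7a11 remained among the lower members on this level scale in spite of its large change, at 20.6 ± 0.80 CPM per kilobase in Malt1-WT and 3.22 ± 0.15 in the vector control (SD, n = 3 each). Exon lengths are the union over all annotated transcripts, which understates the level of genes with long alternative exons.

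**Figure D3:**
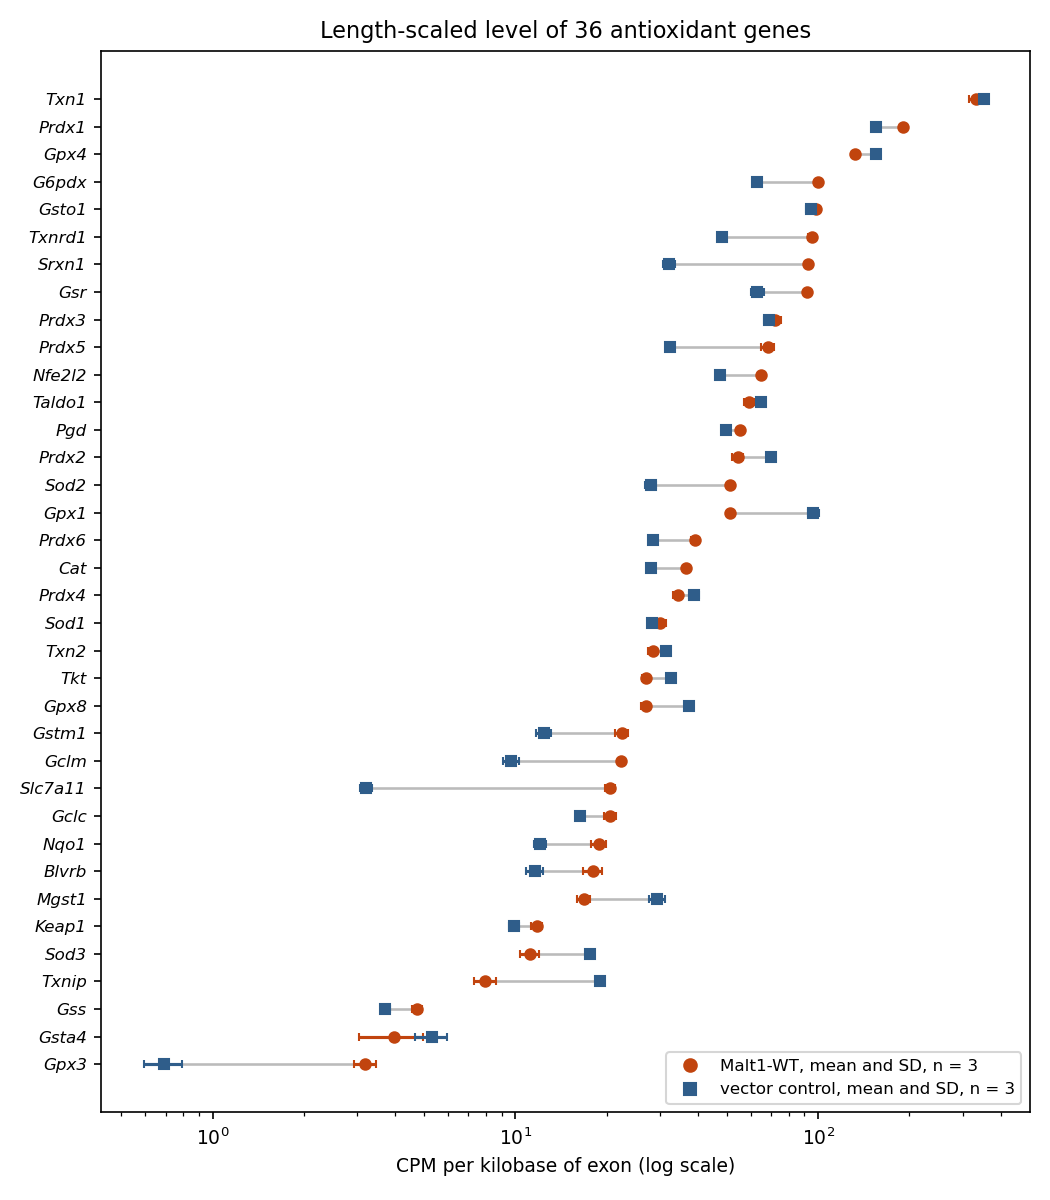
Mean CPM per kilobase of exon on a log scale for the 36 tested members, with circles for Malt1-WT, squares for vector control and SD bars (n = 3 each), ordered by the Malt1-WT level. The lines joining the groups are longest for Slc7a11 and Gpx3, and Gpx1 lies lower in Malt1-WT (51.1) than in the vector control (96.4).

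Other genes of the pathway were taken from a list of 68 symbols, of which 59 were tested: 27 were higher (45.8%, against 31.0% of all tested genes), 18 lower (30.5%, against 30.2%) and 14 not called, with a median log2 fold change of 0.15. The 6 largest increases were in Hmox1, the heme oxygenase gene (3.29, SE 0.03), Maff, a small MAF partner of NRF2 (2.01, SE 0.05), the sestrin gene Sesn2 (1.74, SE 0.05), Sqstm1, whose product p62 binds KEAP1 (1.64, SE 0.02), the glycine transporter gene Slc6a9 (1.35, SE 0.07) and Chac1, which encodes an enzyme that breaks down glutathione (1.35, SE 0.10). Hmox1 had 1569, 1444 and 1475 CPM in Malt1-WT, against 151, 153 and 154 CPM in the vector control. Maff had 115, 113 and 117 CPM in Malt1-WT and 26.6, 27.8 and 30.9 CPM in the vector control, and Sqstm1 had 2393, 2339 and 2339 CPM in Malt1-WT, against 742, 765 and 760 CPM in the vector control. The groups were widely separated in these 3 genes. Exons of Sqstm1 and Slc6a9 meet other genes on the opposite strand, over 17.3% for Mrnip and 27.8% for Ccdc24.

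Some further regulators outside the member list also rose. Mafg (0.80, SE 0.03), Mafk (0.87, SE 0.05) and Bach1, a repressor that competes with NRF2 (0.56, SE 0.05), were higher, while Cul3, the ubiquitin ligase scaffold that acts with KEAP1, was not called (-0.10, SE 0.06, edgeR adjusted p = 0.122). The Cul3 groups did not overlap, with Malt1-WT below. Rbx1, from the same list, was called lower (-0.11, SE 0.05, edgeR adjusted p = 0.0459), but its groups overlapped. These regulators were named after their values were seen. Among known NRF2 targets, Me1 (0.07, adjusted p = 0.142) and Osgin1 (-0.14, adjusted p = 0.144) were not called by edgeR either. Ugdh (-0.001, adjusted p = 0.982) and the low-count Aldh3a1 (0.04, adjusted p = 0.953) were not called by edgeR, and Cbr1 and Cbr3 were not tested. Abcc4 (1.19, SE 0.03), Abcc1 (1.11, SE 0.03), Ephx1 (0.92, SE 0.12) and Gstm2 (0.90, SE 0.06) were higher, and Akr1b8 was higher by less (0.29, SE 0.05). All of these targets were also picked after their values were seen. Of the 59 tested other pathway genes, 27 were higher, 18 lower and 14 not called. The 6 largest decreases were smaller than the increases: Sesn1 (-0.99, SE 0.08), the microsomal transferase gene Mgst2 (-0.71, SE 0.06), the selenophosphate synthetase gene Sephs2 (-0.67, SE 0.06), the selenoprotein gene Selenow (-0.54, SE 0.05), the glyoxalase gene Glo1 (-0.50, SE 0.05) and the mitochondrial glutaredoxin gene Glrx5 (-0.44, SE 0.05). Gm44729 covers 36.4% of the Sephs2 exons on the opposite strand. The edgeR adjusted p was 5.38e-10 or lower in all genes named for the 6 largest increases and the 6 largest decreases. Members and other pathway genes spread over both sides of 0, with the longer tail on the side of increases. All tested genes also had the longer tail there (-6.64 to 8.93), with 8.35% called higher and 4.77% lower at 2-fold.

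**Figure D4:**
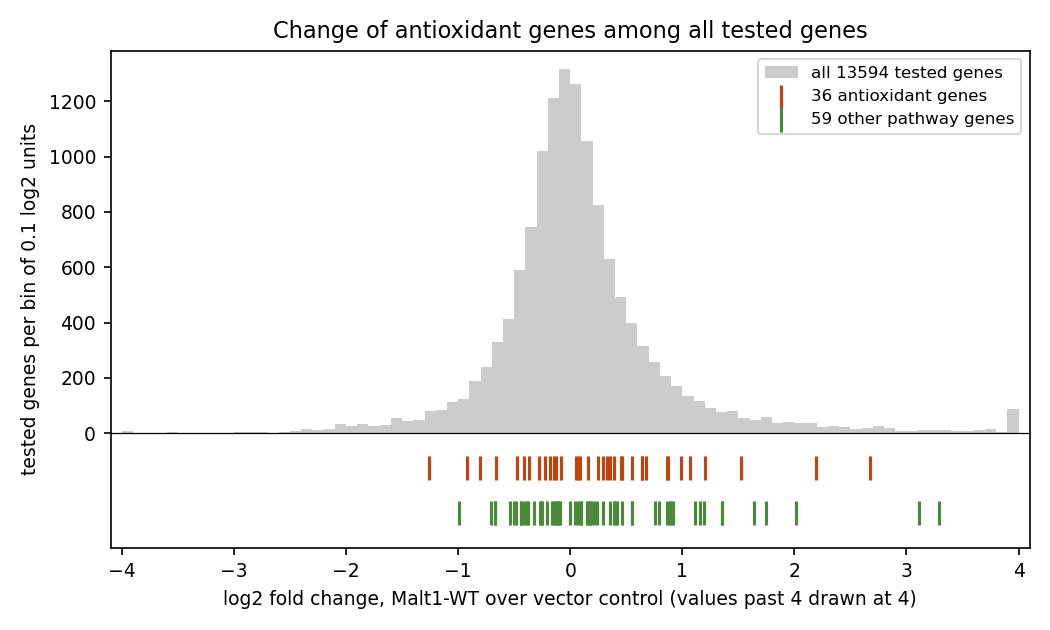
Histogram of log2 fold change, Malt1-WT over vector control, for all 13594 tested genes, with ticks for the 36 tested members and 59 tested other pathway genes. Members range from -1.26 to 2.68, and both sets of ticks reach farther right than left, as do all tested genes (-6.64 to 8.93).

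In the promoters shown above and those of the other members, motif matches were counted over the whole window of 300 bases on both strands. A gene counted as matched if any of its promoters matched, whereas the shares of all promoters are per promoter and so are not on the same scale. The antioxidant response element core TGACNNNGC was found in 9 of 33 members with a promoter (27.3%), against 17.0% of 9611 tested genes with one, and in 12.4% of all 32851 promoters in the reference. It was present in 7 of 17 higher members (Nfe2l2, Gclm, Txnrd1, Srxn1, Prdx1, G6pdx and Pgd), in 1 of 11 lower members (Mgst1) and in 1 of 3 members not called (Sod1). The matches shown begin 134 bases before the start in Gclm, 133 in Prdx1, 92 in Txnrd1 and 57 in G6pdx. The pattern TGATGNAA was found in 1 of 33 members, Slc7a11, against 2.89% of tested genes and 3.97% of all promoters. Slc7a11 held 2 matches, on opposite strands, 66 and 47 bases before the start. An NF-kB element was searched with a pair of spellings, and the count depended on the spelling. The first had GGG and TTCC with 3 free bases (N) between them and was found in 4 of 33 members (12.1%), against 7.62% of tested genes and 5.56% of all promoters. These were Gpx3 and Txnrd1, which were higher, and Gpx1 and Txn1, which were called lower. The second, GGGNNTTCC, was tried after the result of the first had been seen, and was found in 2 of 33 members (6.06%), against 8.66% of tested genes and 5.82% of all promoters. These were Gpx3, which was higher, and Txnip, which was lower. No match of one of these motifs overlapped a match of another, apart from the 2 NF-kB spellings in Gpx3. A match is a description of these letters in this window, and binding was not measured.

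**Figure D5:**
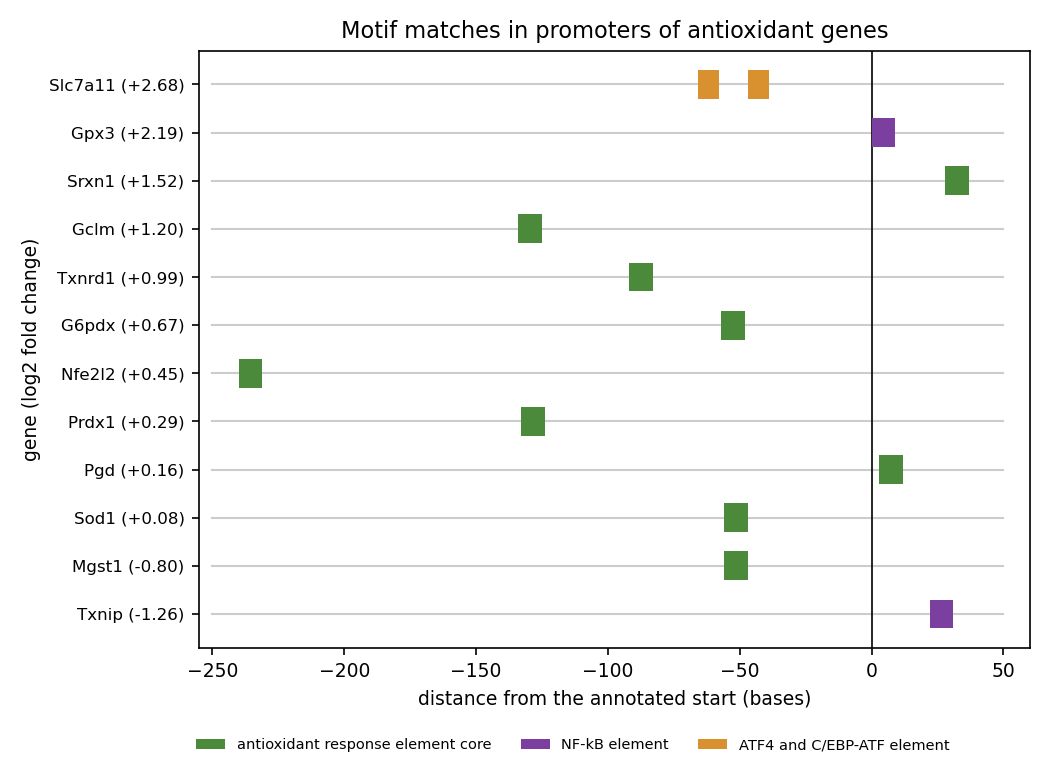
Position of each motif match in bases from the annotated start of its promoter, for the 12 members with at least 1 match of 3 motifs, ordered by log2 fold change (in parentheses). Antioxidant response element cores (green) lie in members from Srxn1 (1.52) down to Mgst1 (-0.80), NF-kB elements (purple, the spelling with 2 free bases) in Gpx3 and Txnip, and the paired ATF4 and C/EBP-ATF matches (orange) in Slc7a11.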

How the data were processed

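Total RNA was extracted with RNAiso Plus and directional libraries were made and sequenced in pairs on a NovaSeq, per the labels' protocols. Per the submitters' processing notes, featureCounts 1.6.3, STAR 2.7.3a and Trim Galore 0.6.0 were used with build GRCm38.p6; the counting annotation and strand setting were not given in the sources used here. The authors deposited raw counts for 6 libraries, per the file headers. The authors' deposited table also holds a log2 fold change and mean log2 expression, a t score, and p-values of their own comparison, per the file headers. No result above uses them. The sign of the log2 fold change was the same in 36 of 36 tested members, which rests on the same counts. Their adjusted p was under 0.05 for Slc7a11, Srxn1 and Gpx3 alone among the members, far fewer than called here. The deposited log2 fold change was 2.66 for Slc7a11, 1.51 for Srxn1 and 2.16 for Gpx3. Members with smaller deposited changes, such as Txnrd1 (0.97) and Sod2 (0.86), did not pass there. The test behind it was not named, so the counts of calls may rest on unlike tests or thresholds. The reason for this difference was not tested.

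Groups came from sample titles. edgeR 4.0.16 (R 4.3.3) was used with filterByExpr (minimum count 10), TMM, robust dispersions and glmQLFTest on all genes, with Benjamini-Hochberg adjustment; the SE is the log2 fold change divided by the root of F. DESeq2 1.42.0 was an alternative. Library pairs within a group differed by 2.13 to 2.87 chi-square per degree of freedom, so none was a duplicate. On simulated counts of 13109 tested genes for Malt1-WT against vector control, 46.9%, 84.8%, 85.1% and 100% of genes changed 1.2-, 1.5-, 2- and 4-fold were recovered, with 17 false calls. These shares rest on 49, 46, 47 and 47 changed genes. Far fewer genes changed there than the 61.2% called in the data, so these rates may not hold for the data. Lengths, positions and exon overlaps came from GENCODE M21 (GRCm38), which may differ from the annotation counted, and promoters from RefSeq. All members were described; of the other pathway genes, the 6 largest called increases and decreases were named, among those whose groups did not overlap and whose mean log2 CPM reached 1. Members, role groups, lists and motifs were chosen with earlier results of these data known.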

Additional observations from a re-analysis of the deposited data

How the results depend on the processing

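Direction was the same in all 36 tested members under upper quartile scaling, DESeq2, no low-count filter, the replicate block and each left-out library. With library size only it was the same in 34 of 36: Gsto1 (-0.0205) and Prdx3 (-0.0104), not called under either scaling, had negative log2 fold changes there. Calls were lost for Txn1 and Gsta4 alone, as given with each gene. Raising the fold minimum to 2 left 5 higher and 1 lower member, against 11 and 4 at 1.5-fold. Library size only gave 9 and 4 at 1.5-fold, and 3528 higher and 5006 lower genes over the whole table, against 4210 and 4110, with a median shift of -0.08 (log2). Leaving out 1 library gave 20 higher members each time, and 11 to 13 lower.

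Same-numbered libraries did not deviate together (correlations of -0.03, -0.02 and 0.02). The labels do not say what a replicate number marks. These correlations cannot exclude a shared culture or day, since counting noise can hide a small joint deviation. With the replicate number as a block, 20 members were higher and 12 lower, with Txn1 at an adjusted p of 0.0518, and 4134 genes were higher and 4034 lower. Depth limits mainly Gpx3 and Gsta4, the tested members with the fewest counts.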

Other observations

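Selenoproteins were looked at as a further group after the decreases in Gpx1, Sephs2 and Selenow had been seen, so their counts are a description. Of 24 selenoprotein genes in a list from general knowledge, 18 were tested, with 4 higher, 11 lower and 3 not called in Malt1-WT. Their median log2 fold change was -0.19. Over all tested genes, 31.0% were higher and 30.2% lower, with a median of -0.003. Leaving out the antioxidant members, 9 of 14 were lower, 2 higher and 3 not called. These 9 still include Sephs2 and Selenow, which had prompted the look, so they are no separate check. The largest decreases outside the members were in Selenop, the selenium transport protein gene (-1.09, SE 0.25), Selenom (-0.81, SE 0.06) and Selenoh (-0.80, SE 0.06), each with no overlap between groups and an edgeR adjusted p of at most 1.37e-04. The 4 increases were in Gpx3 (2.19), Txnrd1 (0.99), Selenos (0.63) and Selenok (0.36). Selenos and Selenok encode proteins of endoplasmic reticulum protein degradation.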
